A study of Homo sapiens with 47 samples.

Results

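The genes described here are 10 well-known imprinted genes, taken by symbol from the RNA-seq count table, which lists 58395 genes. H19, MEG3 and CDKN1C are expressed from the maternal chromosome, and IGF2, DLK1, MEST, PEG3, PEG10, SNRPN and SNHG14 from the paternal one. The study asked how the Mediator complex acts on transcription of histone and small nuclear RNA genes through the elongation factor EAF1 in HEK293T cells, a line derived from human embryonic kidney. Total RNA depleted of ribosomal RNA was sequenced from wild-type cells (3 libraries) and from EAF1-mutant cells (3 libraries). The mutant cells are 1 CRISPR knock-in line in which residues of EAF1 that bind the Mediator subunit MED26 were changed to alanine in both alleles, so that the mutation cannot be told apart from other differences of a single clone. The paper states that its experiments had biological replicates, at least 3 of each, but the labels do not say how those of the RNA-seq were grown, and p-values measure the spread between these libraries only.

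In imprinted loci, DNA methylation laid down in the egg or the sperm is kept after fertilisation, and it leaves a gene active on the chromosome of 1 parent only. At the H19 and IGF2 locus the protein CTCF binds a control region on the unmethylated maternal chromosome and insulates IGF2 from enhancers that then act on H19, whereas on the methylated paternal chromosome the enhancers act on IGF2. Many imprinted genes act on fetal growth, and disturbed expression of imprinted genes underlies disorders such as Beckwith-Wiedemann, Silver-Russell and Prader-Willi syndromes. Parental alleles were not separated in the counts, so that every value below is the sum over both chromosomes.

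Because binding of CTCF sets whether enhancers reach IGF2 or H19, matches to part of its consensus are shown first. The letters CGNGGNGGC, the middle of the CTCF consensus, were searched on both strands in the 10 kb upstream of position 1997842, where 7 of the 31 annotated H19 transcripts start. They matched at 8 sites, and 52.4% of 13438 windows of 10 kb on chromosome 11 held at least 1 match. The letters were settled after matches of a longer form had been seen here, so that the number of sites is a description, and its rarity is not given. All 8 lie on the minus strand, the strand of H19, from 185 to 5179 bases from that start, in introns of longer H19 transcripts and with 0 bases in an H19 exon. Sites 3 to 8, which begin 2128 bases upstream, share the same 10 bases after the match and are thus copies of 1 repeat and not separate hits, whereas sites 1 and 2 do not. The sequences were read from GRCh38, 5′ to 3′ on the minus strand, with the matched bases in capitals, at chr11:1998017-1998045, chr11:1998601-1998629, chr11:1999960-1999988, chr11:2000366-2000394, chr11:2000772-2000800, chr11:2002205-2002233, chr11:2002606-2002634 and chr11:2003011-2003039. A match describes the letters only, and binding of CTCF was not analysed here.
site 1: aggaggggtgCGGGGAGGCcgtctttgga
site 2: ggacccacagCGGGGTGGCtgggggagtc
site 3: gaagtggccgCGCGGCGGCagtgcaggct
site 4: gaggtggctgCGCGGCGGCagtgcaggct
site 5: gaagtggccgCGTGGCGGCagtgcaggct
site 6: aaagtggccgCGCGGCGGCagtgcaggct
site 7: gaagtggccgCGCGGCGGCagtgcaggct
site 8: gaagtggccgCGCGGCGGCagtgcaggct

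Levels are given as deposited counts and as CPM, counts scaled by the TMM-adjusted total of their library. Total counts were 59137210, 52541541 and 55637032 in wild-type and 57198018, 53369621 and 66611451 in EAF1-mutant libraries, so that 3 counts correspond to between 0.0434 and 0.0594 CPM in a single library. The targeted gene EAF1 (ENSG00000144597, chromosome 3, 15427598 to 15450635) had 57.4, 58.4 and 56.5 CPM in the wild-type and 19.7, 17.9 and 18.8 CPM in the EAF1-mutant libraries. A point mutation leaves the RNA countable, so that this lower level does not check the labels.

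Of the 10 imprinted genes, 6 passed the low-count filter of edgeR, as did 28025 genes in all. Calls, EAF1-mutant against wild-type, needed an adjusted p below 0.01 in edgeR's quasi-likelihood test together with a log2 fold change beyond 0.5 either way. IGF2 and CDKN1C rose, the counts assigned to SNHG14, which cannot be told apart from reads of UBE3A (below), fell, and H19, MEST and PEG10 did not pass the test. These are 2 genes called higher, where 11.0% of all tested genes were, and 1 called lower, where 9.36% were (3071 higher and 2624 lower, 20.3% in all). Of these 5695 called genes, 450 reached the count limit of the filter, 0.177 CPM on plain library totals, in libraries of 1 group alone, among them DIO3, CPA5, ZFP28-DT, IGFBP3, CTCFL and LUM below, and their calls rest on near-absence in the other group. When TMM was replaced by plain library totals, the median of all tested genes moved from 0.012 to 0.13 and the split to 4169 higher and 1840 lower, and H19 then passed as well, with a log2 fold change of 0.56. Of the 2 maternally expressed genes tested, 1 was higher, and of the 4 paternally expressed genes tested, 1 was higher and 1, SNHG14 with the limit just given, lower. The groups did not overlap for 4 of the 6 tested genes, against 57.3% of all tested genes. With so few genes at shared loci, these shares describe the genes named and no class of genes. The median log2 fold change was 0.24 over the 6 genes.

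**Figure D1:**
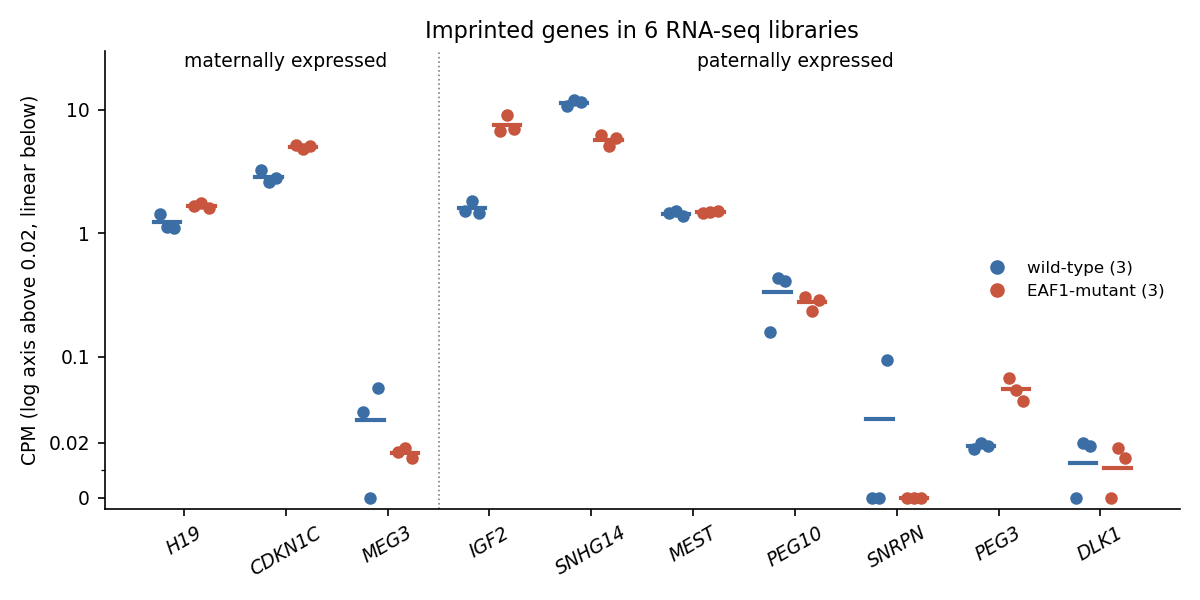
CPM of the 10 imprinted genes in each RNA-seq library (points) with the group means (horizontal bars), maternally expressed genes on the left. The vertical axis is logarithmic above 0.02 CPM and linear below. The EAF1-mutant points lie above the wild-type ones for H19, CDKN1C and IGF2 and below them for SNHG14, and the points of MEG3, SNRPN, PEG3 and DLK1 stay under 0.1 CPM.

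Among the maternally expressed genes, CDKN1C codes for p57, an inhibitor of cyclin-dependent kinases that slows the cell cycle. CDKN1C (ENSG00000129757, chromosome 11, 2883213 to 2885775, minus strand) had 182, 130 and 150 counts in wild-type libraries and 309, 266 and 350 in the EAF1-mutant libraries. On the CPM scale these were 3.22, 2.57 and 2.80 against 5.19, 4.78 and 5.07. Every EAF1-mutant library lay above every wild-type library, and the gap between the groups was wider than the spread within either. CDKN1C rose from 2.86 ± 0.328 to 5.01 ± 0.208 CPM (SD, n = 3 each; log2 fold change 0.80, standard error 0.10, edgeR's quasi-likelihood adjusted p = 5.32e-07).

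H19 makes a long noncoding RNA and lies 125 kb from IGF2. H19 (ENSG00000130600, chromosome 11, 1995166 to 2004552, minus strand) had 81, 57 and 59 counts in wild-type libraries and 99, 97 and 110 in the EAF1-mutant libraries. On the CPM scale these were 1.43, 1.13 and 1.10 against 1.66, 1.74 and 1.59. The groups did not overlap, but wild-type replicate 1 lay closer to the EAF1-mutant libraries than to the other wild-type ones. The log2 fold change of 0.44 (standard error 0.15) had an adjusted p of 0.0177 in edgeR's quasi-likelihood test and was not called. Without wild-type replicate 1 it was 0.56 with an adjusted p of 0.00684 (edgeR's quasi-likelihood test), which passed, and over all alternative fits the adjusted p ran from 0.00314 to 0.104. MIR675, the microRNA gene inside an H19 exon, had 5, 7 and 2 counts in wild-type and 11, 4 and 8 in EAF1-mutant libraries. These counts are reads of the H19 exon as much as of the microRNA and cannot be told apart from it.

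MEG3, a long noncoding RNA gene of 14q32 (ENSG00000214548, chromosome 14, 100779410 to 100861031, plus strand), was at the edge of detection. It had 2, 0 and 3 counts in wild-type libraries and 1, 1 and 1 in the EAF1-mutant libraries. The groups overlapped, and the ratio of the summed counts, EAF1-mutant over wild-type and adjusted for depth, was 0.523 with an exact 95% interval from 0.0812 to 2.69. This interval covers counting error only, and no difference was detectable at this depth.

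Among the paternally expressed genes, IGF2 codes for insulin-like growth factor 2, a growth factor of fetal tissues. IGF2 (ENSG00000167244, chromosome 11, 2129112 to 2158391, minus strand) had 86, 92 and 78 counts in wild-type libraries and 398, 504 and 483 in the EAF1-mutant libraries. On the CPM scale these were 1.52, 1.82 and 1.46 against 6.68, 9.06 and 6.99. The groups lay far apart, and EAF1-mutant replicate 2 was the highest of the 6 libraries. IGF2 rose 4.74-fold, from 1.60 ± 0.194 to 7.58 ± 1.29 CPM (SD, n = 3 each; log2 fold change 2.24, standard error 0.13, edgeR's quasi-likelihood adjusted p = 6.19e-13). It was called in all 14 alternative settings, with log2 fold changes from 2.10 to 2.36. The readthrough gene INS-IGF2 and the unnamed genes ENSG00000284779 and ENSG00000240801 share 1460, 2711 and 373 exon bases with IGF2 on the same strand, so that their log2 fold changes of 2.12, 2.22 and 2.42 rest in part on the same reads. The antisense gene IGF2-AS shares 333 exon bases with IGF2 and had 3, 1 and 4 counts in wild-type and 9, 11 and 7 in EAF1-mutant libraries. The counts do not separate the strands (below), so that those of IGF2-AS may include reads of IGF2.

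IGF2 and H19 can be compared on the scale of CPM per kilobase of annotated exon. In the wild-type libraries IGF2 stood at 0.514, 0.782 and 0.641 of the level of H19, and in the EAF1-mutant libraries at 1.95, 2.52 and 2.13 times that level. On this scale IGF2 thus lay below H19 in every wild-type library and above it in every EAF1-mutant library. The wild-type order depends on the division by exon length. On plain CPM, IGF2 lay above H19 in the wild-type libraries too (1.52, 1.82 and 1.46 against 1.43, 1.13 and 1.10).

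SNHG14 is the long host transcript of the SNORD115 and SNORD116 small nucleolar RNAs, and its far end runs antisense to UBE3A. SNHG14 (ENSG00000224078, chromosome 15, 24978583 to 25420336, plus strand) had 607, 600 and 620 counts in wild-type libraries and 368, 281 and 409 in the EAF1-mutant libraries. On the CPM scale these were 10.7, 11.9 and 11.6 against 6.18, 5.05 and 5.92. All EAF1-mutant libraries lay under all wild-type ones. The counts assigned to SNHG14 fell from 11.4 ± 0.591 to 5.72 ± 0.590 CPM (SD, n = 3 each; log2 fold change -0.99, standard error 0.078, edgeR's quasi-likelihood adjusted p = 1.86e-10).

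This fall cannot be assigned to SNHG14 itself, because the deposited counts do not separate the strands. Of 225 genes lying wholly inside an exon of a well-counted gene on the opposite strand, 0.889% had under 0.05 of that gene's counts per base, and the median ratio was 1.32. SNHG14 shares 1822 exon bases with UBE3A on the opposite strand, and UBE3A had 5489, 5362 and 5496 counts in wild-type and 3209, 2871 and 3557 in EAF1-mutant libraries. At the mean density of UBE3A those shared bases would hold 521.6 of the 609.0 mean counts of SNHG14 in wild-type and 307.5 of 352.7 in EAF1-mutant cells. The SNHG14 count was 11.1%, 11.2% and 11.3% of the UBE3A count in the wild-type libraries and 11.5%, 9.79% and 11.5% in the EAF1-mutant libraries. Both genes moved together, and the share of UBE3A reads in the SNHG14 count was not tested. The snoRNA genes inside SNHG14 give no further measure, since of the 83 counted snoRNA genes of 15q11, 78 had 0 counts in all 6 libraries and the highest, SNORD115-17, had 2 in sum. Of the 40 at 14q32, beside MEG3, 33 had 0 counts and the highest, SNORD114-3, had 9. None of these snoRNA genes passed the filter, and the reason for their low counts was not tested. Longer genes inside SNHG14 exons on the same strand had few counts too. PWAR5 (3180 bases) and PWAR1 (2414 bases) had 0 counts in all 6 libraries, and ENSG00000261069 (1236 bases) had 1, in wild-type replicate 1. ENSG00000214265, which shares 1049 exon bases with SNHG14, had 6, all in wild-type replicate 3.

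**Figure D2:**
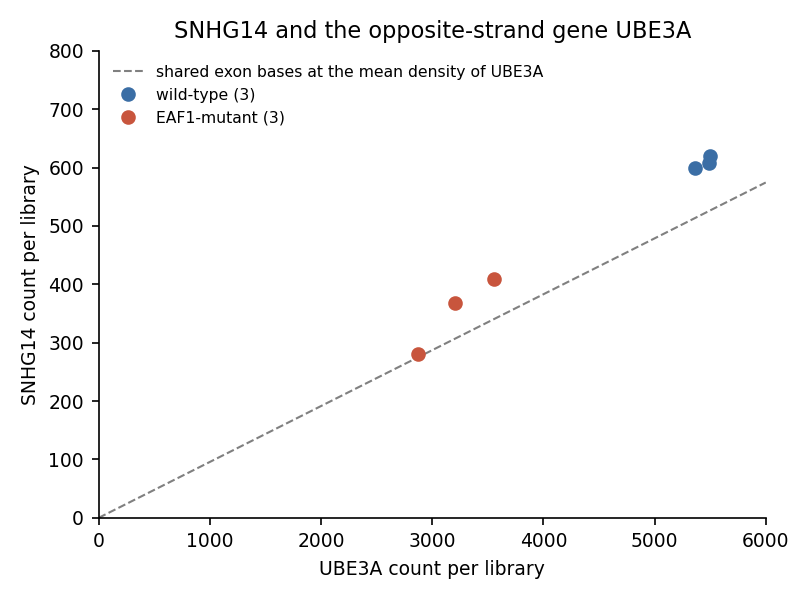
Deposited counts of SNHG14 (vertical) and UBE3A (horizontal) in each of the 6 libraries. The dashed line is the count that the 1822 exon bases shared by both genes would hold at the mean density of UBE3A. All libraries lie on or above this line, and the wild-type libraries lie to the upper right of the EAF1-mutant ones.

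SNRPN, which codes for the splicing protein SmN and starts the same paternal transcription unit (ENSG00000128739, chromosome 15, 24823637 to 24978723, plus strand), had 0, 0 and 5 counts in wild-type libraries and 0 in each EAF1-mutant library. The 5 counts came from wild-type replicate 3 alone, and SNURF, which shares 813 exon bases with SNRPN, had the same counts. SNRPN thus had 0 counts in 5 of 6 libraries while SNHG14 had counts in all 6. Apart from the genes inside SNHG14 given above, where along SNHG14 these reads lie was not analysed here. NDN, of the same domain, had 0 counts in all 6 libraries. MAGEL2, also of this domain and paternally expressed, had 0, 0 and 0 counts in wild-type and 10, 14 and 17 in EAF1-mutant libraries. Against a floor of 3 counts over the wild-type group, MAGEL2 was at least 11.9-fold higher in EAF1-mutant cells, but the filter left it out of the test. No p-value is given for MAGEL2, because a fit without the filter would compare with 0 counts for a gene already seen to be high. MKRN3, the well-counted paternally expressed gene of this domain, went the other way, with 608, 420 and 542 counts in wild-type and 407, 361 and 565 in EAF1-mutant libraries (10.8, 8.31 and 10.1 against 6.83, 6.49 and 8.18 CPM, without overlap). Its log2 fold change of -0.44 (edgeR's quasi-likelihood adjusted p = 0.000342) was under the fold limit, and it was called lower in 2 of 12 alternative fits.

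MEST codes for a protein of the alpha/beta hydrolase family. MEST (ENSG00000106484, chromosome 7, 130486171 to 130506465, plus strand) had 1.45, 1.50 and 1.36 CPM in the wild-type libraries and 1.44, 1.48 and 1.52 CPM in the EAF1-mutant libraries. The groups overlapped, and the log2 fold change was 0.042 (standard error 0.14, edgeR's quasi-likelihood adjusted p = 0.830). It changed sign, to -0.012, without wild-type replicate 3. MEST shares 228 exon bases with COPG2 on the opposite strand, which at the mean density of COPG2 would hold 110.4 counts in wild-type cells, more than the 77.0 mean counts of MEST, so that a level of MEST itself is not given by these counts.

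PEG10 is derived from a retrotransposon and is needed for the placenta. PEG10 (ENSG00000242265, chromosome 7, 94656325 to 94669695, plus strand) had 9, 22 and 22 counts in wild-type libraries and 18, 13 and 20 in the EAF1-mutant libraries. The EAF1-mutant values fell inside the wild-type range, and wild-type replicate 1 was the lowest of the 6. The log2 fold change was -0.26 (standard error 0.35, edgeR's quasi-likelihood adjusted p = 0.566). It was -0.62 without wild-type replicate 1 and -0.042 without wild-type replicate 2, and was called in neither fit.

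PEG3, a zinc finger gene (ENSG00000198300, chromosome 19, 56810077 to 56840728, minus strand), had 1, 1 and 1 counts in wild-type libraries and 4, 3 and 3 in the EAF1-mutant libraries. The ratio of the summed counts was 2.91 with an exact 95% interval from 0.748 to 16.4, so that a difference was not detectable at this depth although the groups did not overlap. DLK1, which codes for a membrane protein related to Notch ligands (ENSG00000185559, chromosome 14, 100725705 to 100738224, plus strand), had 0, 1 and 1 counts in both groups, and no fold is given.

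On the scale of CPM per kilobase of exon, the order of the wild-type levels was CDKN1C at 1.15 ± 0.132, H19 at 0.353 ± 0.0530, MEST at 0.302 ± 0.0148, IGF2 at 0.224 ± 0.0271, SNHG14 at 0.0930 ± 0.00482 and PEG10 at 0.0501 ± 0.0229 (SD, n = 3 each). As counted, H19 and MEST did not differ beyond their spread. The values of MEST, SNHG14 and PEG10 may include reads of the opposite strand, so that their places in this order are those of the assigned counts and not of the genes. In EAF1-mutant cells the order was CDKN1C at 2.02 ± 0.0838, IGF2 at 1.06 ± 0.181, H19 at 0.481 ± 0.0219, MEST at 0.310 ± 0.00807, SNHG14 at 0.0466 ± 0.00481 and PEG10 at 0.0411 ± 0.00544. On this scale IGF2 lay below H19 in the wild-type order and above it in the EAF1-mutant order. On plain CPM its mean lay above that of H19 in both groups. As counted, the last pair, SNHG14 and PEG10, lay within about their spread, and at the mean density of SGCE the 219 exon bases it shares with PEG10 would hold 5.22 of the 17.7 mean counts of PEG10 in wild-type and 6.14 of 17.0 in EAF1-mutant cells. MEG3, DLK1, PEG3 and SNRPN stood under 0.01 in both groups.

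Promoter windows of RefSeq on GRCh38.p14, 300 bases that span a transcript start, were held for H19, MEG3, MEST, SNRPN and SNHG14. They are shown because CG dinucleotides carry the methylation that marks the parental copy, and for each gene the window with the most CG is given, with CG in capitals. The H19 window (chr11:2001217-2001516, minus strand) held 6 CG, and 67.5% of 27305 genes had a window with at least as many. The SNHG14 window (chr15:24823358-24823657, plus strand) held 9 and the SNRPN window (chr15:24954737-24955036, plus strand) 18. The MEG3 window (chr14:100825858-100826157, plus strand) held 19 and the MEST window (chr7:130491835-130492134, plus strand) 25, which 35.6% of genes reached. The median over all genes was 16 CG, so that H19 and SNHG14 lay below it and SNRPN, MEG3 and MEST above it. The RefSeq starts of these windows are not the starts of the GENCODE genes given above. The start in the SNHG14 window lies 155 kb upstream of the GENCODE start of SNHG14, and this window spans the start printed for SNRPN. The starts in the other windows lie 3.29 kb (H19), 5.91 kb (MEST), 46.7 kb (MEG3) and 131 kb (SNRPN) inside the GENCODE gene. That of H19 lies 3.42 kb upstream of position 1997842, between the letter matches printed above as sites 5 and 6. Methylation was not analysed here.
H19 promoter: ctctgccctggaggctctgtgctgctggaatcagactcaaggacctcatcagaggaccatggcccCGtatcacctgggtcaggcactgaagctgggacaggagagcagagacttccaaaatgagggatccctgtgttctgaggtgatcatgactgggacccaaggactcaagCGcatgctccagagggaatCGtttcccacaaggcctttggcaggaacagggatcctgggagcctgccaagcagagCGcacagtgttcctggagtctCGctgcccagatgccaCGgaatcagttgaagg
SNHG14 promoter: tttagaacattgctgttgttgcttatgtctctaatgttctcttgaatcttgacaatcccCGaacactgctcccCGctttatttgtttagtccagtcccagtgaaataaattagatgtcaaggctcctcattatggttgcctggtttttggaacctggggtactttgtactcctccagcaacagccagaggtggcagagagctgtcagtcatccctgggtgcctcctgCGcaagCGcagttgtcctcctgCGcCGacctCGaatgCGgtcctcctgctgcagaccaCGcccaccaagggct
SNRPN promoter: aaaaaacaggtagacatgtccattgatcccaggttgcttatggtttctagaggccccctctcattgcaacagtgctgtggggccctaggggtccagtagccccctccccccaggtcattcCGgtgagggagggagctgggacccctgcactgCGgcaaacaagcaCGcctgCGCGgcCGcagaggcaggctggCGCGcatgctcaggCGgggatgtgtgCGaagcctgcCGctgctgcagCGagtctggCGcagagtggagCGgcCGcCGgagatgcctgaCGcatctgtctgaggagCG
MEG3 promoter: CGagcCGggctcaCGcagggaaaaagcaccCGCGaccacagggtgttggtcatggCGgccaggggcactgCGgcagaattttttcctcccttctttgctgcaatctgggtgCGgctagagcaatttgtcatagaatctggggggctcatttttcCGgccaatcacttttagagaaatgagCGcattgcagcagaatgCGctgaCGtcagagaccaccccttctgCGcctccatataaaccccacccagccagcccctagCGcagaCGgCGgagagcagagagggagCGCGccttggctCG
MEST promoter: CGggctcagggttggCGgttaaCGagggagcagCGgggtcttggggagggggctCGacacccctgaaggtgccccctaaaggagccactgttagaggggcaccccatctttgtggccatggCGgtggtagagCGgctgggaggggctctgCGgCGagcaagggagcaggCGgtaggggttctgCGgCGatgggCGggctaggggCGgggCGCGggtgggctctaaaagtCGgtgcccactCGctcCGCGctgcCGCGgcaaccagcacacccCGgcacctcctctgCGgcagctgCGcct

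All gene lists were chosen with earlier results of these data known, so that the shares called describe the listed genes only. Further imprinted genes gave 36 symbols, of which 34 matched and 21 were tested. Of these 21, 7 rose and 1 fell in edgeR's quasi-likelihood test, where 11.0% of all tested genes were called higher and 9.36% lower, with a median log2 fold change of 0.22. Among the maternally expressed ones 5 of 9 tested rose and UBE3A fell, and among the paternally expressed ones 2 of 12 rose, with the same shares of all tested genes to set beside them. PHLDA2, which restrains growth of the placenta, had 72, 54 and 78 counts in wild-type and 147, 148 and 186 in EAF1-mutant libraries, and rose with a log2 fold change of 1.04 (edgeR's quasi-likelihood adjusted p = 1.07e-06). KCNQ1, a potassium channel gene, rose with a log2 fold change of 0.70, and SLC22A18, a transporter gene, with 0.64. All 3 lie in the same domain of 11p15 as CDKN1C, and none of their groups overlapped, as held for 57.3% of all tested genes. KCNQ1OT1, the paternally expressed noncoding RNA that silences this domain in cis, had 158.7, 161.3 and 154.9 CPM in wild-type and 129.7, 137.0 and 129.0 CPM in EAF1-mutant libraries. Its groups did not overlap, and its log2 fold change of -0.26 (edgeR's quasi-likelihood adjusted p = 2.56e-06) was under the fold limit.

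Outside 11p15, the ubiquitin ligase gene UBE3A, which is imprinted in neurons, fell from 101.9 ± 4.56 to 52.3 ± 1.34 CPM (SD, n = 3 each), a log2 fold change of -0.96 (edgeR's quasi-likelihood adjusted p = 4.78e-15). DIO3, which inactivates thyroid hormone and lies at 14q32 beyond MEG3, had 8, 3 and 3 counts in wild-type and 18, 21 and 43 in EAF1-mutant libraries. It rose with a log2 fold change of 2.31 (standard error 0.43, edgeR's quasi-likelihood adjusted p = 7.90e-05), while its neighbours DLK1 and MEG3 were near 0 in both groups. DIO3 is the 1 of the 8 called genes that passed the filter through the EAF1-mutant libraries alone, whereas MAGEL2 was left out by it. FAM50B rose from 6.09 ± 0.262 to 11.0 ± 0.669 CPM, a log2 fold change of 0.86. TFPI2 passed narrowly with a log2 fold change of 0.50 (edgeR's quasi-likelihood adjusted p = 0.00952) and was called in 4 of 12 alternative fits, and PLAGL1 missed narrowly with -0.49 and was called in 5 of 12. MEG9, ATP10A, RTL1, NPAP1, ZIM2 and USP29 had 3 counts or fewer in sum in at least 1 group and were not tested.

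**Figure D3:**
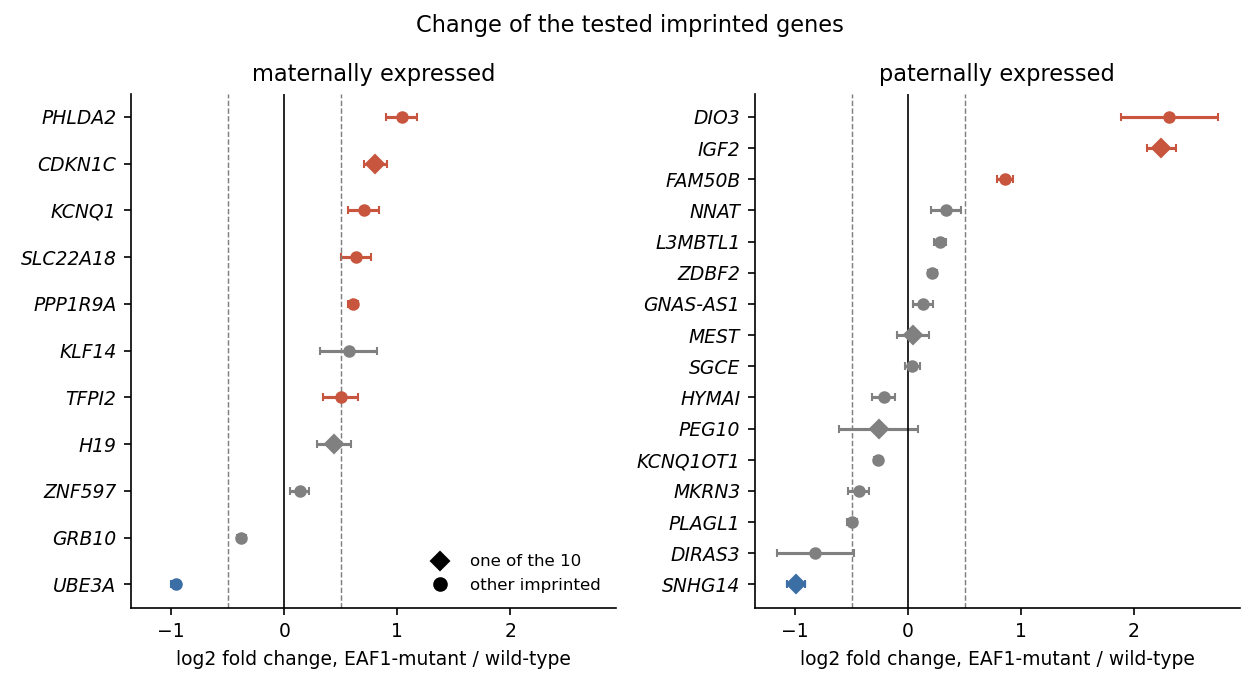
Log2 fold change, EAF1-mutant over wild-type, of the 6 tested genes among the 10 (diamonds) and of 21 further imprinted genes (circles), with bars of 1 standard error, by the expressed parental copy. Red marks genes called higher, blue genes called lower and grey genes not called, and dashed lines mark log2 fold changes of 0.5 and -0.5. IGF2 at 2.24 lies furthest right among the diamonds and SNHG14 at -0.99 furthest left.

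The neighbours of the 10 genes were taken as all tested genes within 500 kb. Of these 105 genes, 32 were higher and 2 lower in edgeR's quasi-likelihood test, against 11.0% higher and 9.36% lower over all tested genes. KCNQ1, PHLDA2, SLC22A18 and PPP1R9A, called higher, and UBE3A, called lower, are also among the further imprinted genes. The counts of both sets are thus not separate. Around H19, IGF2 and CDKN1C on 11p15, 13 of 39 were higher and 1 lower, 35.9% called, with a median log2 fold change of 0.11, against 19.5% called and a median of 0.036 over the 502 tested genes of the short arm of chromosome 11. Of those 13, 3 share exons with IGF2 and 5 others overlap in a single stretch around CTSD, so that the 13 genes lie in 7 separate stretches. Around PEG3, on 19q13, 17 of 27 were higher, 63.0% called, with a median of 0.90, against 25.8% called (223 higher and 21 lower) and a median of 0.24 over 944 tested genes of the arm. These 17 genes lie in 11 separate stretches. Among them, ZFP28-DT passed the filter through the EAF1-mutant libraries alone. The largest changes near PEG3 were those of the processed pseudogene ENSG00000268379, at 2.97, and of the noncoding gene ZFP28-DT, at 2.76, which ran from 2.64 to 3.39 and from 2.18 to 3.71 over the alternative fits, so that their order is not fixed, while PEG3 itself had 3 counts in wild-type and 10 in EAF1-mutant cells.

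Around DLK1 and MEG3, none of 14 tested genes was called by edgeR's quasi-likelihood test, and DESeq2 also called 0. Of the 907 tested genes of the arm, 31.0% were called. Of the 14 genes, 7 had an unadjusted p under 0.05. Over all 28025 tested genes, 7250 were higher and 7170 lower even at an adjusted p under 0.05 (edgeR), so that these 7 do not stand out. Around MEST, CPA5 was the 1 called gene of 17, against 23.9% called of the 908 tested genes of the arm, with 0, 0 and 0 counts in wild-type and 21, 19 and 20 in EAF1-mutant libraries, at least 17.4-fold higher against a floor of 3 counts over the group. CPA5 passed the filter through the EAF1-mutant libraries alone. KLF14, the neighbour of MEST with the next largest change, had a log2 fold change of 0.57 and was not called, but it was called without wild-type replicate 1, and its log2 fold change ran from 0.28 to 0.91 over the alternative fits. Around PEG10, PPP1R9A rose from 21.3 ± 0.164 to 32.6 ± 1.04 CPM, a log2 fold change of 0.61, and SGCE, which shares 219 exon bases with PEG10 on the opposite strand, had one of 0.037. Around SNRPN and SNHG14, UBE3A was the 1 called gene of 3, 33.3% against 16.8% of the 1092 tested genes of the arm. The other 2, RPL5P1 and ENSG00000261529, had log2 fold changes of -0.58 each (adjusted p = 0.0143 each, edgeR's quasi-likelihood test), missed the limit on the adjusted p and were each called in 4 of 12 alternative fits. ENSG00000261529 lies wholly inside UBE3A on the same strand, so that it is not a separate neighbour.

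Of the genes around IGF2 in the insulin-like growth factor system, 14 of 16 were tested, and 3 rose and 0 fell, where 11.0% of all tested genes were called higher and 9.36% lower, with a median log2 fold change of 0.23. IGF2R, the receptor that takes up and degrades IGF2, rose from 188.6 ± 4.21 to 269.3 ± 5.58 CPM (SD, n = 3 each), a log2 fold change of 0.51 (edgeR's quasi-likelihood adjusted p = 2.12e-11). It was under the fold limit, at its lowest 0.49, without wild-type replicate 2 and without wild-type replicate 3. The binding protein gene IGFBP3 had 4, 7 and 4 counts in wild-type and 162, 131 and 178 in EAF1-mutant libraries, a rise with a log2 fold change of 4.74 (standard error 0.24, edgeR's quasi-likelihood adjusted p = 6.73e-14). IGFBP3 passed the filter through the EAF1-mutant libraries alone, so that its call rests on near-absence in wild-type cells. The adaptor gene IRS2 rose from 4.52 ± 0.270 to 15.2 ± 0.711 CPM, a log2 fold change of 1.75. The signalling receptor gene IGF1R had a log2 fold change of -0.079, and IGF2BP1, which codes for an RNA-binding protein of IGF2 messenger RNA, one of -0.065, and neither was called. INS had 0 counts in all 6 libraries and IGFBP1 had 1 count.

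**Figure D4:**
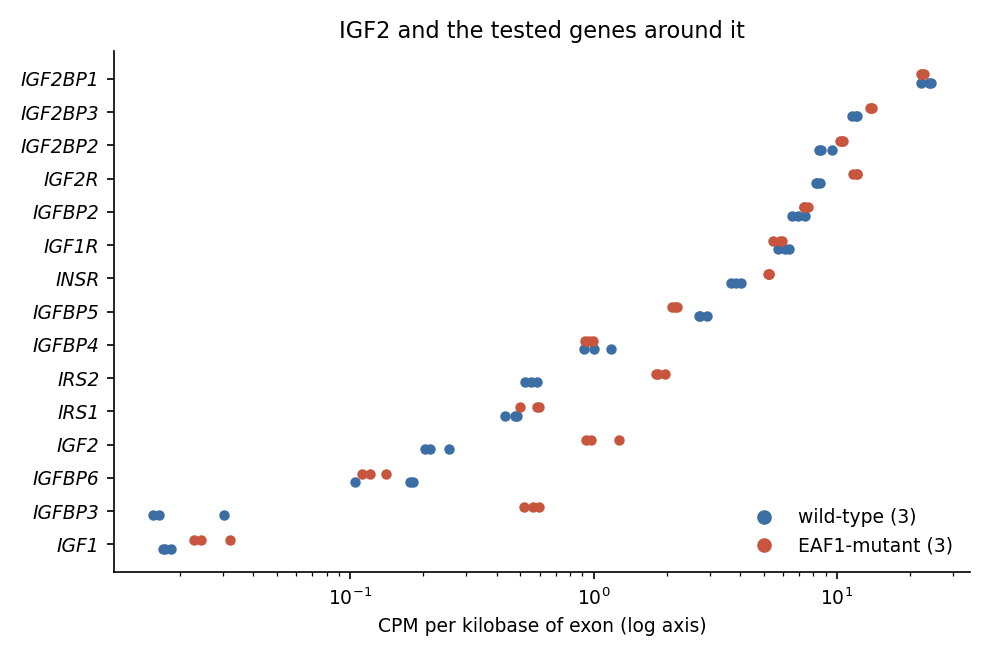
CPM per kilobase of exon (log axis) of IGF2 and the tested genes around it in the 3 wild-type (blue) and 3 EAF1-mutant (red) libraries. IGF2, IGFBP3, IRS2 and IGF2R lie further right in the EAF1-mutant libraries, and IGF2BP1 has the highest level in both groups.

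Of 15 genes for factors that set, read or keep methylation imprints, 12 were tested, and 1 rose and 1 fell, beside the same shares of all tested genes, with a median log2 fold change of -0.067. ZNF445, a zinc finger protein that binds methylated imprint control regions, had 70.7, 71.2 and 71.2 CPM in wild-type and 42.7, 42.8 and 41.2 CPM in EAF1-mutant libraries. It fell with a log2 fold change of -0.75 (edgeR's quasi-likelihood adjusted p = 1.36e-13) and, as EAF1 does, lies on the short arm of chromosome 3. A link between this position and the fall was not tested. CTCFL, the germ-line relative of CTCF, had 1, 7 and 6 counts in wild-type and 17, 15 and 16 in EAF1-mutant libraries. Its rise (log2 fold change 1.56, adjusted p = 0.00732, edgeR's quasi-likelihood test) passed in 6 of 12 alternative fits, whose adjusted p ran from 0.00388 to 0.0660. CTCFL passed the filter through the EAF1-mutant libraries alone, so that its call rests on near-absence in wild-type cells. The maintenance methyltransferase gene DNMT1 had 236.6 ± 4.90 and 227.6 ± 3.83 CPM and was not called. CTCF had 93.6 ± 4.47 and 78.0 ± 1.28 CPM, its groups did not overlap, and its log2 fold change of -0.26 (edgeR's quasi-likelihood adjusted p = 8.19e-06) was under the fold limit. ZFP57, DNMT3L and DPPA3 had 3 counts or fewer in sum in at least 1 group.

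The 2 called genes of the 10 with the largest changes were set beside the genes nearest to them in log2 CPM. The measure was the Euclidean distance over the 6 libraries, without centring. It thus ranks by level as well as by change, and passes over genes of like change at another level. The nearest to IGF2 was ENSG00000284779 at a distance of 0.092, which shares its exons, then ENTREP1 at 0.54 and CDH4 at 0.66. The nearest to SNHG14 were FKBP7 at 0.26, AP4S1 at 0.27 and SLC7A11-AS1 at 0.28. UBE3A, at 101.9 CPM in wild-type cells, is not among them. Relative to the wild-type mean, the EAF1-mutant libraries stood at 0.53, 0.51 and 0.51 for UBE3A. For SNHG14 they stood at 0.54, 0.44 and 0.52. The nearest genes lie on other chromosomes, except the overlapping one.

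The labelled cell type was checked against marker genes. Of 9 markers of HEK293T cells 8 were above 1 CPM, with a summed level of 664.5, 673.4 and 692.5 CPM in wild-type and 505.4, 499.7 and 510.5 CPM in EAF1-mutant libraries. VIM was the most abundant, at 380.5 and 199.4 CPM, and fell, as NEFM did (log2 fold change -1.31), while KRT8 (1.38) and KRT18 (0.82) rose (edgeR's quasi-likelihood test). Summed markers of fibroblasts lay between 4.48 and 6.13 CPM, of endothelium between 0.168 and 0.324 and of hepatocytes between 0.149 and 0.377 over the 6 libraries. Other sums separated by group. Those of muscle markers were 0.725, 0.633 and 0.897 CPM in wild-type and 1.23, 1.24 and 1.16 CPM in EAF1-mutant libraries, and those of the blood markers PTPRC, CD3E and LYZ 0.195, 0.277 and 0.149 against 0.0840, 0.126 and 0.130. The fibroblast genes COL1A1 (log2 fold change 0.54, but 0.40 and not called without wild-type replicate 1) rose and COL3A1 (-2.18) and LUM (-3.53) fell, while COL1A2, PTPRC, CD3E and AFP had 5 counts or fewer in sum in each group. LUM passed the filter through the wild-type libraries alone. The part of these marker shifts in the changes of imprinted genes was not tested.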

How the data were processed

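Ribosomal RNA-depleted RNA-seq of 3 wild-type and 3 EAF1-mutant libraries was analysed, with groups taken from the labels. The authors deposited raw counts per Ensembl gene, made with Rsubread from trimmed reads that HISAT2 had mapped to GRCh38. The libraries were made with a stranded kit (TruSeq Stranded Total RNA), but how the counting treated strand and multi-mapped reads is not given in the sources read, so reads of overlapping genes were checked in the counts. The ELL ChIP-seq table lists histone genes only and was not used here.

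Symbols, positions and exon lengths came from GENCODE v44 on GRCh38, which matched 57754 of the 58395 genes. In R 4.3.3, TMM scaling, CPM, the filterByExpr filter and the quasi-likelihood test came from edgeR 4.0.16, with p-values of 28025 genes adjusted by Benjamini-Hochberg, and the fit was tested on simulated data. Standard errors are the log2 fold change over the square root of F. Library totals ran from 52541541 to 66611451 counts. Ratios of summed counts have exact conditional binomial intervals at 95%.

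The 10 genes and all lists were chosen with earlier results of these data known. Named were the 10 genes, EAF1 and the called genes of each list (at most the 3 largest rises and the 3 largest falls). List genes with 3 counts or fewer over a group were named too. So were at most 2 neighbours a gene within 500 kb with the largest change. For the largest rise and fall, the 3 genes nearest in log2 CPM were named. KCNQ1OT1, MKRN3, PLAGL1, TFPI2, INS-IGF2, IGF2-AS, MIR675, COPG2, SGCE, CTSD, RPL5P1, ENSG00000261529, LYZ, IGF1R, IGF2BP1, DNMT1, CTCF and the snoRNA genes were named after their values were seen. The letters of the CTCF search were cut from a longer form whose matches had been seen. The alternatives were DESeq2 1.42.0, other scalings and filters, a replicate block, each library left out and other thresholds. One gene of the marker lists is not reported here.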

Additional observations from a re-analysis of the deposited data

How the results depend on the processing

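Across 12 alternative fits IGF2 (log2 fold change 2.10 to 2.36), CDKN1C (0.72 to 0.92) and SNHG14 (-1.05 to -0.87) kept their direction and their calls in edgeR or DESeq2, and PEG10 (-0.62 to -0.042) kept its direction and was never called. MEST, from -0.012 to 0.063 with single libraries left out, changed sign without wild-type replicate 3, and H19 passed without wild-type replicate 1 (0.56) and with library totals (0.56). The 4 genes with 5 counts or fewer in sum over the wild-type group, MEG3, DLK1, PEG3 and SNRPN, had an adjusted p only in edgeR without the filter, where none was called, and depth limits what can be said of them.

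At an adjusted p under 0.05 with no fold limit (edgeR), 7250 genes were higher and 7170 lower over all genes, 2 maternally expressed genes of the 10 were higher, 10 further imprinted genes were higher and 6 lower, 2 imprint factors were higher and 4 lower, 7 insulin-like growth factor genes were higher and 1 lower, and 46 neighbours were higher and 15 lower. With a log2 fold change over 1 in size, 1452 genes were higher and 698 lower over all genes, 1 of the 10 was higher (IGF2) and 0 lower, 0 maternally expressed genes were higher and 0 paternally expressed ones lower, 2 further imprinted genes were higher and 0 lower, 0 imprint factors were lower, and 14 neighbours were higher and 1 lower; this limit removes calls by its construction. With library totals 2 maternally expressed genes were higher, where 4169 of all 28025 tested genes were higher and 1840 lower. With DESeq2 2 further imprinted genes were lower and 0 imprint factors higher, where 2509 of all 33825 tested genes were higher and 2397 lower. Without the filter 4 neighbours were lower, where 3399 of all 49036 tested genes were higher and 2793 lower.

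With single libraries left out, 1 to 2 maternally expressed genes were higher, 1 to 3 further imprinted genes lower, 0 to 1 imprint factors higher and 2 to 4 neighbours lower. Over all genes, 2790 to 2924 were higher and 2493 to 2664 lower in these fits, of 28624 to 28961 tested. The cause of these shifts was not tested. The replicate numbers do not pair the samples, since the correlations of same-numbered libraries' deviations from their group means were -0.0054, -0.017 and 0.0097, and not every library correlated best with its own number. With the replicate number as a block, 3055 genes were higher and 2631 lower, 2 of the 10 were higher and 1 lower, and 4 neighbours were lower in place of 2.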
